A study of Mus musculus with 2 samples.

Results

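The glycolysis and hypoxia response genes were described in mouse embryonic stem (ES) cells that lived on either of the 2 forms of Baf53, a subunit of the Baf chromatin-remodeling complex. The 32 genes were chosen by name: 3 transporters, 16 glycolytic enzymes, 3 regulators of glycolytic flux and 10 hypoxia response genes. All 32 had a probe, among 20832 genes with one, and all 32 were measured on both arrays, among 16608 genes. They were read by 52 probes, of which 51 were well above background on both arrays, and 21 of the genes rested on 1 measured probe each.

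Both arrays carried RNA of the same Baf53a cKO ES cells, a line derived from E14 cells in which both Baf53a alleles were mutated with CRISPR/Cas9 and a resistant Baf53a transgene was kept on until tetracycline (Tet) repressed it. The line was 1 clone. The cells were grown with LIF on gelatin, transfected with a plasmid for Myc-tagged Baf53a or Baf53b, and from 48 h later given 1 μg/mL Tet for 6 days. The groups thus shared the mutation, the transgene and the Tet and differed in the plasmid. Each group was 1 array, so there was no replicate, no test was possible and no p-value was computed, and every value below compares 2 RNA samples rather than the conditions.

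Glycolysis breaks glucose down to pyruvate in the cytosol, and lactate dehydrogenase turns pyruvate into lactate when the mitochondria do not take it up. Low oxygen stabilises the HIF factors, which bind the letters ACGTG or GCGTG in DNA together with Arnt and raise the transcription of many glycolytic genes along with genes for vessel growth, pH control and mitophagy. Mouse ES cells are known for a high rate of glycolysis even in air.

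In Baf53b-expressing cells, 14 of the 16 glycolytic enzymes read slightly lower than in Baf53a-expressing cells, with a median log2 difference of -0.08, beside 50.9% of all genes and 75.9% of the brightest group of genes, which held 12 of the enzymes. The count of 14 was 13 with quantile normalization and 12 with cyclic loess. It was 5 when both arrays were scaled to Gapdh, itself an enzyme of this list at -0.09, which that scaling sets to 0. The other 16 members were split, 9 higher and 7 lower, with a median of 0.0225. No member was 2-fold apart, as against 0.193% of all 16608 genes. Only Pfkfb3 and Egln1 were at least 1.2-fold apart, both higher in Baf53b-expressing cells, which is 2 of 32 members beside 11.9% of all genes apart by that much in either direction and 8.47% higher. Neither call was kept with normexp background correction or with a stricter filter on dim probes. Ddit4 was just inside that limit, 1.18-fold higher, and Pdk1 was 1.17-fold lower. A level here is the log2 processed signal minus the 75th percentile of its array, and a difference is Baf53b- minus Baf53a-expressing cells.

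Promoter stretches upstream of the start site that hold the HIF letters are shown for 7 members on which the account turns: Pgk1, Gapdh and Ldha of the enzymes, and the 4 members that stood farthest from 0. They were read from RefSeq promoters on GRCm38.p6, which run from 250 bases before to 50 bases after a start site, and are written 5′ to 3′ along the strand of the gene. Capitals mark either ACGTG or GCGTG, which appear as CACGT or as CACGC where they lie on the opposite strand. CACGTG holds ACGTG on both strands and is also the E-box that Myc and related factors bind. For Ldha, Pfkfb3 and Pdk1, which have several start sites, 1 stretch each is shown. Matches at or past the start site are counted below but not shown, among them the single ACGTG of Gapdh, 42 bases after it.
Pgk1, chrX:106186935-106186988, plus strand: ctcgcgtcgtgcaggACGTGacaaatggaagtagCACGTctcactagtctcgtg
Gapdh, chr6:125165798-125165842, minus strand: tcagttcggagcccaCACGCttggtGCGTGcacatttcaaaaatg
Ldha, chr7:46845644-46845789, plus strand: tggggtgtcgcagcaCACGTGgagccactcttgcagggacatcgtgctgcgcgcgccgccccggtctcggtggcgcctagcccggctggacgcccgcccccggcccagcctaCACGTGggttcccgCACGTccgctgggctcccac
Pfkfb3, chr2:11502123-11502227, minus strand: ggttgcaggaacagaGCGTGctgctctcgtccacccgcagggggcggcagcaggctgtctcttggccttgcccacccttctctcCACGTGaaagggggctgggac
Pdk1, chr2:71873131-71873165, plus strand: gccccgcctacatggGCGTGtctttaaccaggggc
Ddit4, chr10:59951866-59951972, minus strand: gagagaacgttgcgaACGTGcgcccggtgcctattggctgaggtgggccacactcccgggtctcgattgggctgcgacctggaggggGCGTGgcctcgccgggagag
Egln1, chr8:124949303-124949395, minus strand: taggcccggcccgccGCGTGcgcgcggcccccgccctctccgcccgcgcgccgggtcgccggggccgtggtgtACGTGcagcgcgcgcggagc

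RefSeq promoters were at hand for 30 of the 32 members, all but Slc2a3 and Ndrg1, and counted 44 since a gene can have several start sites, whose windows may overlap. ACGTG stood on either strand of 24 of the 44 (54.5%), beside 23.4% of 16481 promoters of the genes measured and 19.6% of all 32851. Either of ACGTG and GCGTG was in 36 of the 44 (81.8%), beside 56.5% of the promoters of the genes measured, and Gpi1 and Tpi1 were the members with neither. CACGTG was in 5 of the 44 (11.4%), beside 9.16%. The 21 members with ACGTG in a promoter had a median difference of -0.06 and ran from -0.19 to 0.42, with 9 higher and 12 lower in Baf53b-expressing cells. The 9 members without it had a median of -0.08 and ran from -0.23 to 0.02, with 1 higher and 8 lower. Most of these 9 were glycolytic enzymes, which made up a smaller part of the 21. The counts therefore also differ in role, and they were not adjusted for brightness. Over all genes measured, 52.9% of those with ACGTG and 51.1% of those without it were lower. These matches describe letters in a window and were not read as binding sites.

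**Figure D1:**
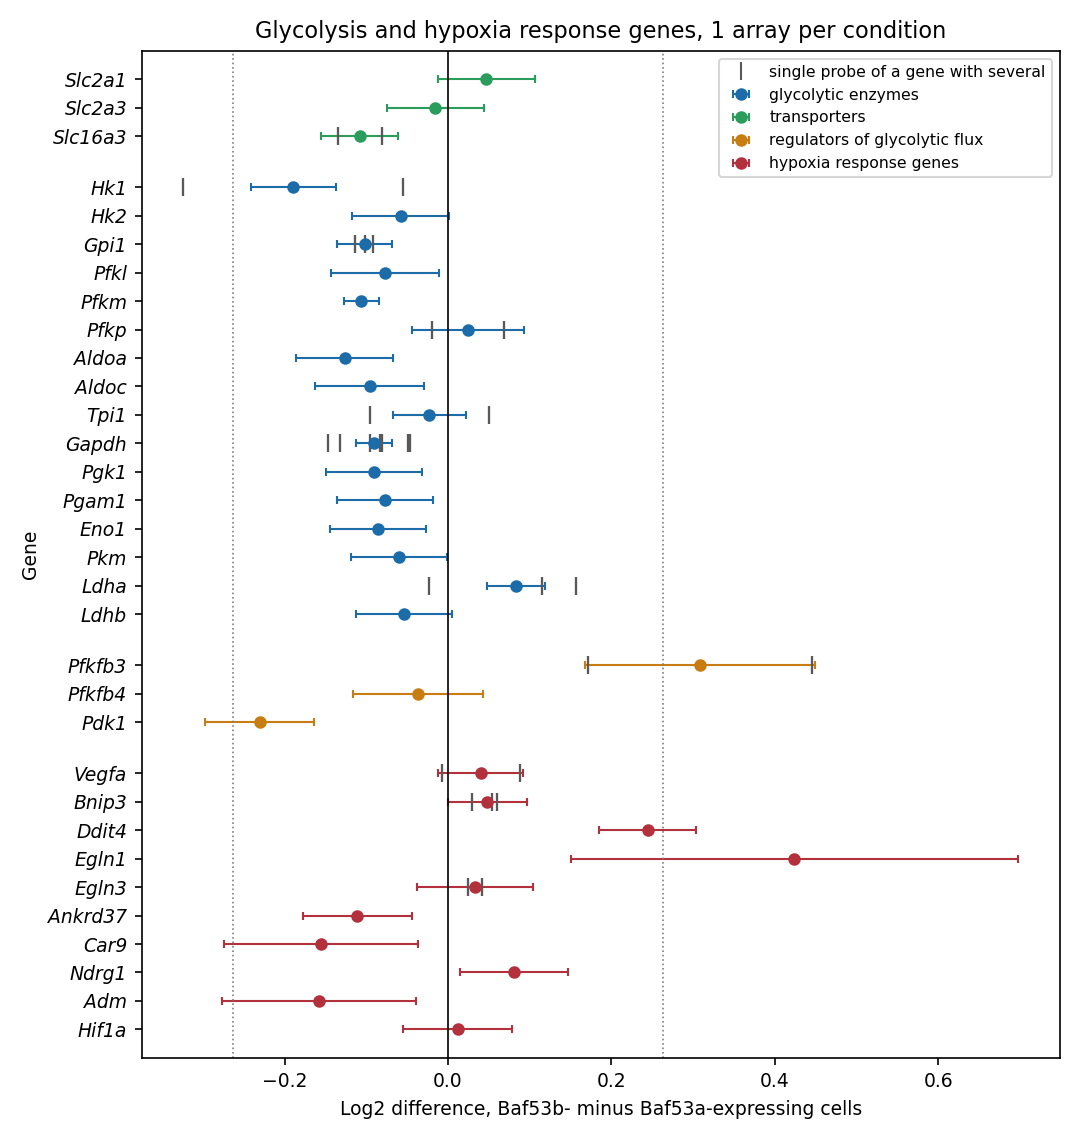
Log2 difference, Baf53b- minus Baf53a-expressing cells, of each of the 32 members on 1 array per condition. Points are genes, vertical ticks the single probes of genes with several, and dotted lines mark 1.2-fold. Horizontal bars are ± the spot error, which covers neither cultures nor arrays. It is the SD of a difference, from the spread of repeated spots of equally bright probes on both arrays, reduced by the number of spots and probes averaged. The enzymes lie between -0.19 and 0.08 and the hypoxia response genes between -0.16 and 0.42.

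Of the transporters, the glucose carriers stood close to equal. Slc2a1, the glucose transporter GLUT1, was at 4.62 in the Baf53a cells and 4.67 in the Baf53b cells, and Slc2a3, the transporter GLUT3, was at 4.54 and 4.52. Both differences, 0.05 and -0.02, were within 1 spot error of 0.059. Slc16a3, which exports lactate, was at 1.48 and 1.38, and both of its probes were lower in Baf53b-expressing cells, by -0.13 and -0.08.

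The enzymes of the first steps commit glucose to the pathway. Hk1, a hexokinase that phosphorylates glucose, was at -0.49 with Baf53a and -0.68 with Baf53b, the lowest difference among the enzymes at -0.19. Its brighter probe gave signals of 3718 and 2886, a difference of -0.32, and its dimmer probe 183 and 171, a difference of -0.05, so the size rested on 1 probe although both leaned the same way. The other hexokinase, Hk2, was at 2.48 and 2.42. Gpi1, which turns glucose 6-phosphate into fructose 6-phosphate, was at 5.78 and 5.68, and its 3 probes lay between -0.11 and -0.09.

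Phosphofructokinase, the main control point of the pathway, has a liver, a muscle and a platelet form. Pfkl was at 1.48 and 1.40, a difference of -0.08, and Pfkp at -1.60 and -1.58, a difference of 0.02 with 1 probe lower and 1 higher. The probe of Pfkm was printed in 10 spots on each array, which makes it the member with the best view of spot error. Its spots ran from 0.60 over a median of 0.63 to 0.70 in Baf53a-expressing cells (SD 0.0299) and from 0.43 over 0.54 to 0.60 in Baf53b-expressing cells (SD 0.0491). The groups of spots overlapped slightly, with 9 of the 10 spots on the first array above every spot on the second, and the difference was -0.11. Repeated spots share 1 RNA sample and show the error of reading, not of the cells.

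The next enzymes split and oxidise the sugar phosphates. Aldoa, the main aldolase, was at 7.35 and 7.23, a difference of -0.13, and Aldoc, another aldolase, at 1.22 and 1.12. Tpi1, which interconverts the triose phosphates, was at 2.46 and 2.44, with 1 of its 2 probes lower and 1 higher. Gapdh, the enzyme that oxidises glyceraldehyde 3-phosphate, was at 6.34 and 6.25. All 7 of its probes were lower in Baf53b-expressing cells, by between -0.15 and -0.05, around a mean difference of -0.09. All were in the brightest group of probes, of which 76.2% were lower. Of the genes in the brightness group of Gapdh, 43.2% were at least as far apart. Its difference was -0.03 with quantile normalization and -0.02 with cyclic loess. Gapdh was the gene to which the study scaled its RT-PCR.

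**Figure D2:**
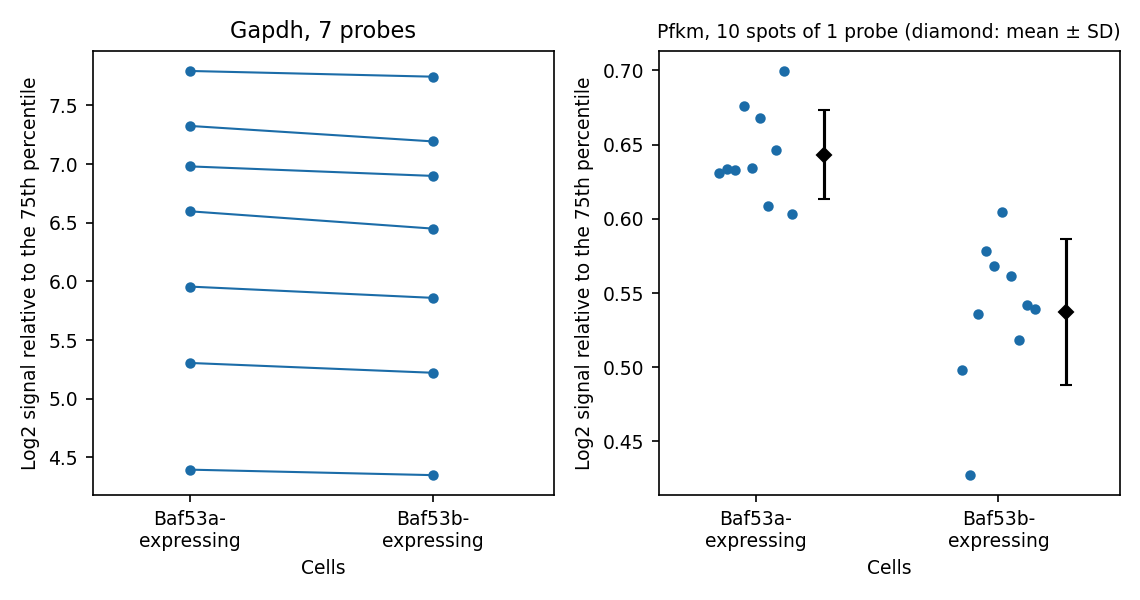
Left, the log2 level of each of the 7 Gapdh probes on both arrays, with a line per probe, and right, the 10 spots of the Pfkm probe on each array with the mean ± SD of the spots beside them, both relative to the 75th percentile of the array. All 7 Gapdh lines slope down, by between 0.05 and 0.15, and 76.2% of the brightest group of probes were lower as well. Heights of different probes are not comparable, and the Pfkm spots run from 0.60 to 0.70 with Baf53a and from 0.43 to 0.60 in Baf53b-expressing cells.

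The enzymes that yield ATP and pyruvate differed by about as much as Gapdh. Pgk1, which makes the first ATP of the pathway, was at 5.48 and 5.39, a difference of -0.09. Pgam1, a phosphoglycerate mutase, was at 6.30 and 6.22, and Eno1, an enolase, at 6.35 and 6.26. Pkm, the pyruvate kinase of most dividing cells, was at 5.27 and 5.21. Over the pathway, 25 of the 29 enzyme probes were lower in Baf53b-expressing cells, beside 51.3% of all measured probes with a gene symbol and 76.2% of the brightest group of them.

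Lactate dehydrogenase has a pair of forms. Ldha, the form that favours lactate, was at 4.09 with Baf53a and 4.17 with Baf53b, and its difference of 0.08 was the highest of the 16. Its 3 probes gave -0.02, 0.12 and 0.16, so they disagreed in sign, and the brightest alone put the gene at -0.02. Ldhb, which favours pyruvate, was at 2.40 and 2.34, a difference of -0.05 that was within 1 spot error and became 0.04 when scaled to Gapdh.

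Set beside all genes, the readings of the enzymes lay near those of equally bright genes. When the genes measured were cut into 5 equal groups by mean signal, the dimmest group had a median difference of 0.0845 and the brightest one of -0.0619, and the share of genes lower in Baf53b-expressing cells was 36.2% and 75.9%. Over all genes 50.9% were lower. Of the 16 enzymes, 12 were in the brightest group, where 11 of the 12 were lower with a median of -0.0772. Counted from the median of its own brightness group, an enzyme lay at a median of -0.0194, with 6 above and 10 below, while the other members lay at 0.0292, with 9 above and 7 below. The median of the enzymes was -0.08 by the 75th percentile and between -0.019 and -0.017 by quantile normalization and cyclic loess, both of which remove a shift with brightness. Whether the RNA of the cells or the reading of the arrays made bright genes lower was not tested.

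**Figure D3:**
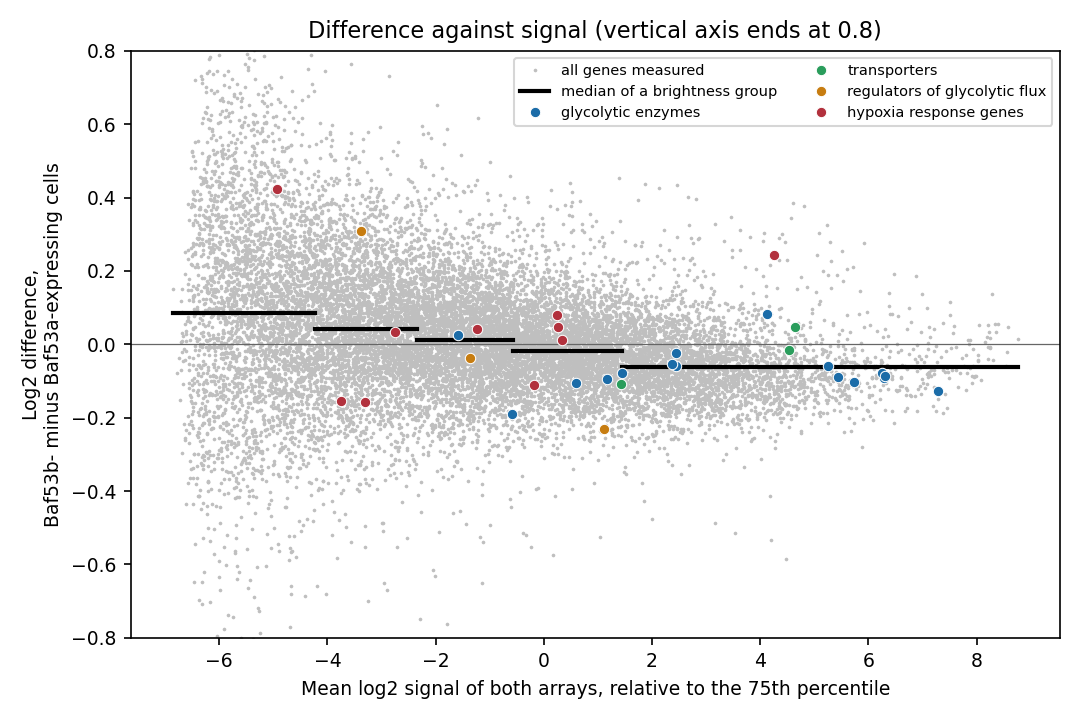
Log2 difference, Baf53b- minus Baf53a-expressing cells, against the mean log2 signal of both arrays relative to the 75th percentile, for all 16608 genes measured (grey) and the members (coloured by role), with black lines at the median of each of the 5 brightness groups; 68 genes beyond 0.8 in either direction are not drawn. The medians step down from 0.0845 to -0.0619, and most enzymes lie near the line of the brightest group while Ddit4, at 0.24, lies far above it.

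The regulators of flux held the member with the second highest difference and the member with the lowest. Pfkfb3, which makes fructose 2,6-bisphosphate and thereby speeds up phosphofructokinase, was at -3.53 with Baf53a and -3.22 with Baf53b, 1.24-fold higher. Its brighter probe gave signals of 747 and 817, a difference of 0.17, and its dimmer probe 13.6 and 18.0, a difference of 0.45. The dimmer probe lay close to the lowest signal well above background, which was 8.45 on the first array and 9.75 on the second, and with the brighter probe alone Pfkfb3 was under 1.2-fold. Pfkfb4, a related enzyme, was at -1.35 and -1.38 by 1 probe, while its other probe was not well above background on either array.

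Pdk1, the kinase that switches off pyruvate dehydrogenase and so keeps pyruvate from becoming acetyl-CoA, gave signals of 2716 and 2249. Its levels were 1.23 and 0.996, the lowest difference of all 32 members at -0.23, beside a spot error of 0.0664 for probes of its brightness. Pdk1 was read by 1 probe with 1 spot on each array. Of the genes in its brightness group, 4.70% were as far apart or farther, the second lowest such share among the 32 members. The processing alternatives put Pdk1 between -0.28 and -0.14.

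Among the hypoxia response genes, 7 of 10 read higher in Baf53b-expressing cells, with a median of 0.04, beside 49.1% of all genes. Against the median of its brightness group, 6 of the 10 lay above. The count of 7 was 3 with centring on the median, where Vegfa, Bnip3, Egln3 and Hif1a turned lower, and 5 with normexp. Ddit4, an inhibitor of mTORC1 that stress and low oxygen switch on, stood out most for its brightness. It gave signals of 20428 and 23508, levels of 4.14 and 4.38, and a difference of 0.24, which was 4.14 times the spot error of 0.059. Ddit4 was read by 1 probe with 1 spot on each array, and the spot error does not cover the spread between probes. Of the brightest group of genes, 2.95% were as far apart. This was the lowest such share among the 32 members, so it is the extreme of many readings. The alternatives put Ddit4 between 0.19 and 0.34.

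Egln1, the prolyl hydroxylase that marks HIF for destruction when oxygen is present, had the highest difference of all members, 0.42, or 1.34-fold. It was also the dimmest member, with signals of 32.9 and 42.9, levels of -5.14 and -4.72, and a spot error of 0.274. Among genes as dim, 34% were at least 1.2-fold apart and 14.0% were as far apart as Egln1, so the reading was not unusual for its brightness. With normexp the difference was 0.16, and the stricter filter on dim probes left Egln1 out. Egln3, another HIF prolyl hydroxylase that HIF itself induces, was at -2.78 and -2.74. Hif1a, the oxygen-sensitive HIF subunit, was at 0.32 and 0.34, a difference of 0.01, but the factor is controlled mainly as a protein, which these arrays did not measure.

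The remaining targets of HIF lay within 0.16 of equal. Vegfa, the growth factor for blood vessels, was at -1.25 and -1.21, with 1 probe lower and 1 higher. Bnip3, which marks mitochondria for removal, was at 0.24 and 0.28, and its 3 probes were all higher by between 0.03 and 0.06. Ndrg1, a stress-induced gene, was at 0.20 and 0.28.

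Lower readings came from 3 hypoxia response genes. Ankrd37, a small ankyrin-repeat gene induced by HIF, was at -0.13 with Baf53a and -0.24 with Baf53b. Car9, a carbonic anhydrase at the cell surface that controls pH, was at -3.68 and -3.83. Adm, the vasodilator peptide adrenomedullin, was at -3.24 and -3.39. The spot error for Car9 and Adm was 0.119, so both stood between 1 and 2 spot errors below 0.

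Over all members, 10 of 32 lay farther than 2 spot errors from 0, beside 24.2% of all genes and 33.5% of the brightest group. Within 1 spot error lay 11, beside 45.9% of all genes and 35.3% of the brightest group, which held 12 of the enzymes. From the median of their brightness group, 5 lay farther than 2 spot errors, beside 21% of all genes. Of the 11 members with several measured probes, 7 had all probes on the same side, the exceptions being Pfkp, Tpi1, Ldha and Vegfa. The 16 enzymes were also closer to each other, with an SD of 0.0615 between genes beside 0.176 for the other members. The other members were dimmer on the whole, and over all genes the SD was 0.0999 in the brightest group and 0.2995 in the dimmest.

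The enzymes were also set against the other members. The median of the enzymes minus the median of the others was -0.10 by the 75th percentile and between -0.10 and -0.04 under the alternative processings. Centring on the median and scaling to Gapdh shift a whole array, so they cannot move this gap. With quantile normalization the gap was -0.04, with cyclic loess -0.05 and with normexp -0.07. Against the hypoxia response genes alone it was -0.12. The enzymes were brighter on the whole, and the brightest group of all genes had a median of -0.0619. Counted from the median of its own brightness group, an enzyme lay at a median of -0.0194 and another member at 0.0292. How much of the gap goes with brightness was not tested.

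**Figure D4:**
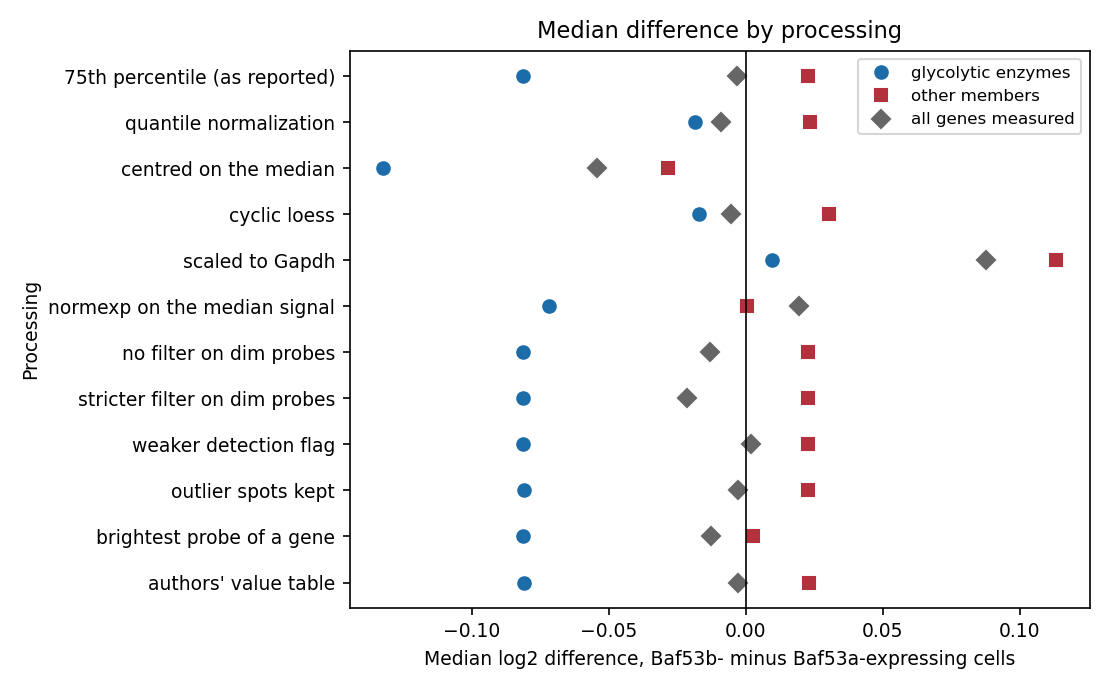
Median log2 difference, Baf53b- minus Baf53a-expressing cells, of the 16 glycolytic enzymes (circles), the 16 other members (squares) and all genes measured (diamonds) under each processing. The enzymes, which are brighter on the whole, lie left of the other members in every line. Alternatives that shift a whole array cannot change this gap. The enzymes are at -0.08 as reported, near -0.02 with quantile normalization and cyclic loess, and at 0.01 when both arrays are scaled to Gapdh.

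Other genes of these pathways were counted from 3 lists of 82 genes, of which 76 were measured, 37 higher and 39 lower in Baf53b-expressing cells with a median of -0.01. The isozymes and neighbours of glycolysis had 33 measured genes, 11 higher and 22 lower, at a median of -0.04. The HIF factors and oxygen sensors had 10, 4 higher and 6 lower, at -0.04, and the other hypoxia-induced genes had 33, 22 higher and 11 lower, at 0.04. Of all genes measured, 50.9% were lower and 49.1% higher. The share lower was 36.2% in the dimmest group and 75.9% in the brightest, and the lists were not set against genes of equal brightness. At least 1.2-fold higher were 4 of the 76, and none was as much lower, beside 8.47% and 3.41% of all genes.

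Of these, Pklr, the pyruvate kinase of liver and red cells, was the farthest apart, at -5.92 and -4.81, a difference of 1.11, but like Arnt2, a partner of HIF, at -6.11 and -5.68, it was in the dimmest group with a spot error of 0.274. Flt1, a receptor for Vegfa, was at -2.14 and -1.74, a difference of 0.41 with a spot error of 0.0799. Among the lowest were Pgam2, the muscle phosphoglycerate mutase, at -1.96 and -2.19, and Pdk2, a relative of Pdk1, at -2.53 and -2.71. The HIF partner Arnt was at 0.62 and 0.57, lower by less than 1 spot error. Epas1, which encodes HIF-2α, was at 1.67 and 1.54, in the brightest group, where 75.9% of genes were lower.

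Labels and cell type were checked on the same arrays. The Baf53b gene, Actl6b, could not be told from background on the first array and was at least 14.5-fold higher on the second, a bound set by the weakest signal told from background on the first. Actl6a, which encodes Baf53a, was at 1.71 and 1.67, so it did not set the arrays apart and does not check the Baf53a label, and which of the mutated gene, the transgene and the plasmid its probe reads is not known here. All 10 ES cell markers were measured, with sums of levels, relative to the 75th percentile, of 189.7 and 178, and none was 1.2-fold apart. All 8 primitive endoderm markers were higher in Baf53b-expressing cells, by between 0.08 and 0.40, beside 49.1% of all genes. Their summed level was 20.9 on the first array and 25.7 on the second, nearly all of it Lama1. At least 1.2-fold higher were 5 of the 8, and 2 of the 5 trophoblast markers measured, beside 8.47% of all genes. Of 6 trophoblast markers, 5 were measured and higher, with sums of 3.25 and 3.81, the larger part of each from Tfap2c. Elf5 was not well above background. Sums were 1.35 and 1.32 for the 7 fibroblast markers, with Postn not well above background on either array and Col3a1 only on the second, and 7.93 and 7.16 for the 5 neuronal markers, nearly all of it Tubb3, with Dcx well above background only on the second array. The part of the endoderm and trophoblast markers in the values of Pfkfb3, Egln1, Ddit4 and Pdk1 was not tested, and in such bulk RNA fewer cells of a type and less RNA per cell cannot be told apart.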

How the data were processed

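Total RNA of 1 Baf53a-expressing and 1 Baf53b-expressing sample was labelled with Cy3 and hybridised to Agilent mouse arrays on 1 slide. The authors deposited the intensity of each spot from Feature Extraction 11.0.1.1, background-subtracted and spatially detrended, together with detection and outlier flags. The authors also deposited a table whose values are each a ratio, in which each of the 30479 values compared per array was a probe's processed signal over 1160 or 1126 to within 0.1%, out of 30488 probes listed. The array design is annotated on mm9, and symbols were matched by RefSeq accession to a table on GRCm38.p6, used for names and promoter sequences.

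Control spots and outlier spots (173 and 143) were left out, log2 intensities averaged per probe, and the 75th percentile (signals of 1161 and 1128) subtracted. A probe was measured when at least 50% of its spots were well above background on both arrays, and a gene was the mean of its measured probes. No spot was saturated. Spot error was the SD of a difference, from the summed variances on both arrays of repeated spots of probes with at least 5 spots, by brightness group. It was divided by the root of the number of spots of a probe and combined over the probes of a gene. Precision is limited by 1 array per condition.

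The members and lists were chosen with earlier results of these data known. The genes named were all members, Arnt, Epas1, the 3 pathway genes farthest apart in each direction, and Actl6a and Actl6b. A value that this rule would name is not reported here. Alternatives were other normalizations, normexp (offset 50, on the median signal as the files hold no mean signal), other filters, the brightest probe and the deposited table. Python 3.11.15 with numpy 2.4.6 and pandas 2.3.3, and R 4.3.3 with limma 3.58.1, were used, and the steps were tested on simulated data.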

Additional observations from a re-analysis of the deposited data

How the results depend on the processing

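No paired analysis was possible because each condition had a single array, and for the same reason no replicate could be left out. The direction of Pfkfb3 and Egln1, the 2 members at least 1.2-fold apart, turned under no alternative that measured them. Some members nearer to equal did change sign, among them Hk2 and Tpi1 with quantile normalization. The sign of the enzymes against the other members did not turn, but alternatives that shift a whole array cannot turn it. No member was 2-fold apart under any alternative. The median of the enzymes, -0.0813 as reported, was -0.0187 with quantile normalization, -0.0172 with cyclic loess and 0.00936 when both arrays were scaled to Gapdh. That scaling, which sets a member to 0, also gave 0.113 for the other members, as against 0.0225, and 0.0875 for all genes, as against -0.00323. Enzymes lower in Baf53b-expressing cells numbered 12 of 16 with cyclic loess, 13 with quantile normalization and 5 when scaled to Gapdh. The 2 members at least 1.2-fold higher became 0 with normexp and 0 with the stricter filter on dim probes, which left 30 members measured, and 3 with cyclic loess or the Gapdh scaling. Centring on the median or taking the brightest probe gave 1 higher and 1 lower. Dim signal limited Egln1 and Pfkfb3 most. Probe sequences were not used here, so binding of related transcripts to a probe was not examined.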
